A study of Mus musculus with 6 samples.

Results

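The comparison is of mouse embryonic stem cell derivatives at day 7 with the same line at day 4, across the last step of a differentiation protocol, and uses 2 of the 6 arrays of the series, 1 for each day. The cells are triple knockouts for Dnmt1, Dnmt3a and Dnmt3b and constantly express a DNMT1 that is missing its first 602 amino acids at the N terminus (the deletion line). The day 7 cells had been kept for 3 days in medium with 10% knockout serum replacement (KSR) and 10 ng/ml Activin A, which was given to bring on primitive streak formation. The day 4 cells had grown for 1 day as embryoid bodies and for 3 days attached to the dish, without leukaemia inhibitory factor (LIF). A line with the same deletions that expresses the complete DNMT1 (the full-length line) has 1 array for each of the same days and is shown beside. Day 0 cells were stem cells in 10% serum with LIF. An effect of the DNMT1 form and of the particular line that carries it cannot be told apart, and neither can time, medium and Activin A.

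All genes whose probe sets carry one gene symbol were taken, each by its brightest probe set. Of 18193 such genes, 13277 had a mean signal over the 6 arrays at or above a floor of 41.2 (5.37 on the log2 scale) and are called measured. Levels are log2 MAS5 signals, differences are log2 of day 7 minus day 4 unless named otherwise, and a difference from a level at the floor is a lower bound. With 1 array a side no difference has a replicate error or a test. A gene is called higher or lower where it differed at least 2-fold and its brighter array reached at least 2 times the floor. The yardstick for noise is a gene's second probe set: over 6152 genes the brightest and second-brightest measured probe sets differed by a median of 0.24 in their day 7 minus day 4 difference, which covers probe noise and not the spread between cultures. The number of arrays limits the precision.

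Activin A binds the receptors that Nodal also uses, and the signal passes through SMAD2 and SMAD3 to target genes that include the pathway's own inhibitors. In the early mouse embryo this pathway acts in the epiblast, the tissue that pluripotent stem cells model, and helps to form primitive streak and endoderm. Many genes of germ cells, and some of oocytes and cleavage stages, are known to be kept silent in other cells by DNA methylation at their promoters, which DNMT1 copies onto new DNA strands. DNA methylation was not measured here.

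At day 7, 632 genes (4.76% of those measured) were higher and 792 (5.97%) were lower than at day 4, with a median difference over all measured genes of -0.01. These 2 shares are the background for the list counts that follow, and a count near them is not a result about its list. The higher genes were led by genes of germ cells, oocytes and cleavage-stage embryos. The lower genes included glycolytic and hypoxia-response genes, markers of the formative epiblast, feedback inhibitors of FGF signalling, and embryonic globin and some endothelial genes. Genes of oxidative phosphorylation and the cell cycle had no member past 2-fold, of 26 and 28 measured. They are bright, with median day 7 levels of 13.1 and 12.2, and few genes at such levels were called at all. A second measured probe set existed for 203 of the higher genes and had the same sign in 184 (90.6%), at least 2-fold in 102. For the lower genes it existed for 331, with the same sign in 294 (88.8%) and at least 2-fold in 162. It went at least 2-fold the other way for 1 higher and 2 lower genes. The differences were wider for dim genes: 8.24% were higher and 11.3% lower at a mean level of 6.5 to 8, against 1.88% and 2.09% at a level over 10.

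**Figure D1:**
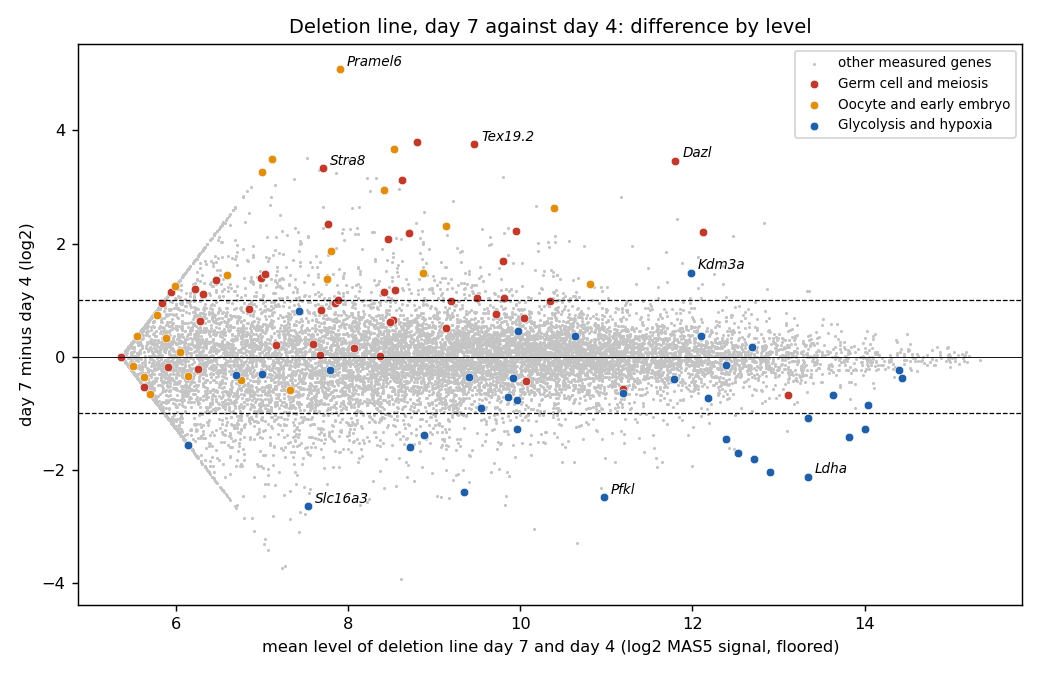
Each point is a measured gene of the deletion line, with its mean level over day 7 and day 4 on the x axis and its day 7 minus day 4 difference on the y axis, both log2. Dashed lines mark 2-fold. Germ cell (red) and oocyte or early embryo genes (orange) reach up to 5.08, and glycolysis and hypoxia genes (blue) reach down to -2.64. The straight edges on the left are genes at the floor on 1 of the arrays.

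Promoter sequences are shown for 4 genes among the highest differences, because 2 of them have promoters rich in CpG, the site that DNA methyltransferases modify, and the other 2 have promoters with few. They were chosen after their values were seen. Each is the 250 bases before the annotated start, read from the RefSeq table of build GRCm38.p6 on the gene's strand, with each CpG in capitals. Dazl (source of a germ cell RNA-binding protein; chr17:50293621-50293870, minus strand) has 20 CpGs and Smc1b (a meiotic cohesin subunit; chr15:85131958-85132207, minus strand) has 25. Pramel6 (a gene of preimplantation embryos; chr2:87506315-87506564, plus strand) has 2 and Nlrp4f (an oocyte gene; chr13:65205717-65205966, minus strand) has 2.
Dazl: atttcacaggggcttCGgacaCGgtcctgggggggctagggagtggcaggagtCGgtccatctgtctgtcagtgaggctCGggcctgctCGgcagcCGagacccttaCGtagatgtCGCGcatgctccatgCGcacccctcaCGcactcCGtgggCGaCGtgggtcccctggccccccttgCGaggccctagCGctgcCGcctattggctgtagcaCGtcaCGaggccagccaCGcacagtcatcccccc
Smc1b: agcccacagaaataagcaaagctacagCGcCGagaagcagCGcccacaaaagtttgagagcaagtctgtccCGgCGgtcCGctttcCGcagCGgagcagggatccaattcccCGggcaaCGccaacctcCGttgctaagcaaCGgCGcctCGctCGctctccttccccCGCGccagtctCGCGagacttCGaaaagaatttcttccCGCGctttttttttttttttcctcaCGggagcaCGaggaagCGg
Pramel6: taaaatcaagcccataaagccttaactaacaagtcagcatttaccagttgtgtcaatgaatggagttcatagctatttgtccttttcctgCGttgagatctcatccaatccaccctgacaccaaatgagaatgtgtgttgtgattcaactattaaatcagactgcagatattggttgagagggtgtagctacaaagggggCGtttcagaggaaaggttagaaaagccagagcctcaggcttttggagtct
Nlrp4f: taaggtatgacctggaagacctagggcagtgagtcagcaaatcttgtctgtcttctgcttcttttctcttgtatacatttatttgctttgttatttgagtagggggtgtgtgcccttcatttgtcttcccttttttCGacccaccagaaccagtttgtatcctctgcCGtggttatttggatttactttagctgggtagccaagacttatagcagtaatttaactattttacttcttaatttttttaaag

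The germ cell and meiosis genes were higher in 22 of 46 measured members (47.8%, beside 4.76% of all measured genes) and lower in 0, with a median difference of 0.98. The members of this list and of the others were chosen with earlier results of these data known. Their counts describe those members and do not test them. Of the 69 genes listed, 23 were not measured, and 3 of the measured ones lay at the floor at day 4. Dazl had a level of 13.53 at day 7, against 10.07 at day 4, an 11-fold difference of 3.46, and its second probe set gave 4.11. Smc1b lay at 10.19 at day 7 and at 7.06 at day 4, 8.75-fold apart. In the full-length line both were higher too, Dazl by 1.55 and Smc1b by 1.42. Among the other meiotic genes, Stra8, which germ cells need to enter meiosis, had a level of 9.37 at day 7, against 6.04 at day 4. Sycp1, a component of the synaptonemal complex that joins paired chromosomes, had 8.94 at day 7 and 6.59 at day 4. Stra8 and Sycp1 were higher in the full-length line too, by 3.06 and 1.10. In all, 8 of 19 meiosis genes were higher.

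Of the genes for germ cell RNA handling and transposon defence, 6 of 14 were higher. Tex19.2 had 11.34 at day 7 and 7.59 at day 4 (13.5-fold), and its relative Tex19.1, which acts against retrotransposons, had 13.23 and 11.02. Asz1, a factor of the piRNA pathway, was higher by 2.18. The other germ cell genes were higher in 8 of 13. Magea5, an X-linked cancer-testis antigen gene, stood at 10.70 at day 7 and 6.91 at day 4. Slc25a31, a germ cell ADP/ATP carrier, and Taf7l, a germ cell variant of a general transcription factor subunit, were higher by 2.23 and 2.08, beside full-length differences of -0.52 and 0.28. Tex19.2 and Magea5 were higher in the full-length line too, by 2.18 and 2.19. Over the whole list the full-length line had 17 members higher and 1 lower, with a median of 0.61. On chromosome 11, whose genes were higher as a whole, lie 6 of the 46, Tex19.1 and Tex19.2 among them. Without these 6, 18 of 40 were higher, with a median of 0.97.

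Genes of oocytes and early embryos were higher in 13 of 23 measured members and lower in 0, with a median of 1.29, beside 0.57 in the full-length line. Only 23 of its 45 genes were measured, and a gene that passes the floor through its day 7 level had to be higher: of 5 at the floor at day 4, 4 were called, and of the 18 above it, 9. With dim genes kept the median was 0.04. Pramel6 had a level of 10.44 at day 7, while its day 4 level was at the floor, so the difference was at least 33.7-fold. Its second probe set gave a difference of 2.72. Pramel7, a gene of the same family, had 8.86 at day 7 and lay at the floor at day 4 (at least 11.3-fold). Trim43a, a gene of cleavage stages, likewise had 8.63 at day 7 and the floor at day 4. Nlrp4f had 10.37 at day 7 and 6.70 at day 4 (12.7-fold), and Khdc3, a part of the oocyte's subcortical maternal complex, had 11.70 and 9.08. Crxos, a homeobox gene of early embryos, had 9.89 at day 7 and 6.95 at day 4. In the full-length line Nlrp4f, Khdc3 and Crxos were higher too, by 2.56, 2.27 and 3.17. Pramel6, Pramel7 and Trim43a were higher there by at least 1.045, at least 1.085 and 1.2.

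The oocyte growth factor gene Gdf9 and Zp3, a protein of the egg coat, were higher by 1.45 and 1.87. Several of these genes belong to multigene families whose probes may read related copies. Counted by symbol after the values were seen, 4 of 6 measured Pramel genes and 3 of 6 measured Nlrp genes were higher and 0 of either family lower. Usp17la, a deubiquitinase gene of this list, had 10.29 at day 7 and 7.98 at day 4 in the deletion line, while in the full-length line it had 8.0 at day 7 and 9.83 at day 4.

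The CpG content of promoters was set out for each group as a description. Over the 300 bases from 250 before to 50 after the start, the ratio of observed to expected CpG was at least 0.6 in 45.2% of 491 higher and 56.3% of 608 lower genes with a sequence, against 69.3% of 10679 measured genes. The germ cell list had 60.0% (24 of 40) and the oocyte and early embryo list 11.1% (2 of 18). The E-box CACGTG was found in 12 of 40 germ cell promoters (30%), in 5 of the 20 of higher germ cell members (25%), in 8.35% of all higher genes, 8.06% of all lower genes and 10.1% of all measured genes. GCGGGA, the core of E2F6 sites, searched on both strands, was found in 25.9% of the higher, 32.2% of the lower and 35.1% of all promoters. TATAAA, also on both strands, was found in 13.8% of the higher, 7.57% of the lower and 7.59% of all.

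The 25 genes with the highest differences, each with its brighter array at 4 times the floor or more, differed between 6.77-fold and 33.7-fold. Of these, 5 are in the germ cell list and 5 in the oocyte list, and 17 were also called higher in the full-length line. Outside those lists, Spic, a transcription factor gene of the Ets family, had 9.28 at day 7 and 5.77 at day 4. Aspa, the enzyme that splits N-acetylaspartate, had 9.75 and 6.27. Mt4, a metallothionein gene of stratified epithelium, had 8.94 at day 7 and 5.80 at day 4, and was higher by 3.18 in the full-length line. Aqp3, a water and glycerol channel gene, had 10.60 and 7.84, and Calcoco2, an autophagy receptor gene, had 12.58 and 9.76. Gkn2, a gene of the stomach lining, and Ccl25, a chemokine gene, were higher by 3.30 and 3.15, and the second probe set of Ccl25 gave only 0.67. Of the 25, Aspa, Calcoco2, Tex19.2 and Xaf1 lie on chromosome 11.

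**Figure D2:**
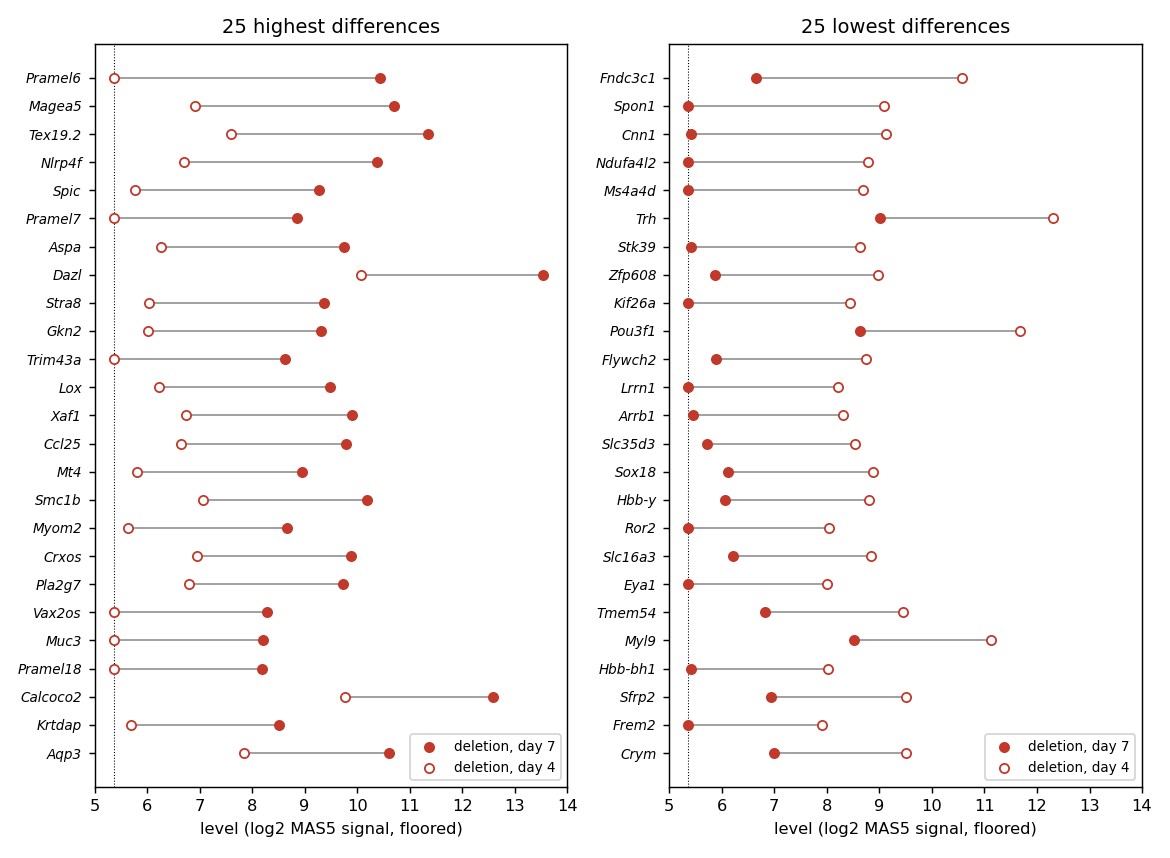
Levels in the deletion line at day 7 (filled) and day 4 (open) of the 25 genes with the highest and the 25 with the lowest day 7 minus day 4 differences, on a log2 MAS5 axis. The dotted line is the floor, where 6 of the higher genes lay at day 4 and 8 of the lower genes lay at day 7.

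The 25 lowest genes differed between 5.70-fold and 15.2-fold. Fndc3c1, an X-linked gene, had a level of 6.65 at day 7 and 10.58 at day 4. Spon1, which encodes the matrix protein F-spondin, lay at the floor at day 7 and at 9.09 at day 4, so it was at least 13.2-fold lower. Cnn1, the smooth muscle calponin, had 5.42 at day 7 and 9.12 at day 4. Trh, the precursor of thyrotropin-releasing hormone, had 9.01 at day 7 and 12.30 at day 4. Ndufa4l2, a hypoxia-induced mitochondrial protein gene, and Ror2, a receptor for WNT5A, were both at the floor at day 7, with 8.78 and 8.04 at day 4. Of the 25, 10 were also called lower in the full-length line, and Kif26a, a kinesin family gene, was called higher there (1.30), while in the deletion line, at the floor at day 7, its difference was -3.08 or below.

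Glycolysis and hypoxia-response genes were lower in 15 of 37 measured members and higher in 1, with a median of -0.72, beside a median of -0.10 and 2 members each way in the full-length line. Glycolysis breaks glucose down to pyruvate and lactate, and many of its enzymes are induced by HIF factors when oxygen is short. Ldha, which makes lactate, had a level of 12.28 at day 7 and 14.40 at day 4 in the deletion line (4.35-fold lower), and 14.34 and 14.79 in the full-length line. The glycolytic enzyme genes Pfkl and Tpi1 were lower by 2.48 and 2.03, beside -0.65 and -0.24 in the full-length line. The glucose transporter gene Slc2a1 had 13.11 at day 7 and 14.52 at day 4, and Pgk1 had 13.37 and 14.65. Slc16a3, which exports lactate, had 6.21 at day 7 and 8.85 at day 4, although it lies on chromosome 11.

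Among hypoxia-response genes, Egln3, a HIF prolyl hydroxylase, had 8.16 at day 7 and 10.54 at day 4. Pdk1, which holds pyruvate back from the mitochondria, had 11.82 and 13.62, and Bnip3, a mitophagy receptor gene, had 11.68 and 13.38. Vegfa differed by -0.23. The exception was Kdm3a, a histone demethylase gene, with 12.72 at day 7 and 11.24 at day 4. Gapdh and Eno1 had no probe set with 1 symbol and are not among the 37. Car9, the hypoxia-induced carbonic anhydrase, lay at the floor at day 7 and at 6.92 at day 4 in the deletion line, while the full-length line had 7.60 at day 7 and 5.99 at day 4.

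The core sequence bound by HIF factors, ACGTG on either strand, was added to the search after the data were seen. It was found in the 300-base promoters of 22 of 34 measured list members (64.7%), of 10 of the 14 lower ones with a sequence (71.4%) and of 25.4% of all measured genes. It was found in 23.2% of all lower genes, in 20.8% of all higher genes and in 19 of 40 germ cell promoters (47.5%), so it did not go with the lower genes as a whole. Ldha (chr7:46845554-46845803, plus strand) and Egln3 (chr12:54203875-54204124, minus strand) are shown as 2 lower members that carry it, in the 250 bases before the start with ACGTG and its reverse complement in capitals. For Ldha this start lies inside the annotated gene, which begins at 46842274. Ldha holds 5 matches counted over both strands, since the palindrome CACGTG counts on each, and Egln3 holds 1. A match is a string of letters and not a measured binding site.
Ldha: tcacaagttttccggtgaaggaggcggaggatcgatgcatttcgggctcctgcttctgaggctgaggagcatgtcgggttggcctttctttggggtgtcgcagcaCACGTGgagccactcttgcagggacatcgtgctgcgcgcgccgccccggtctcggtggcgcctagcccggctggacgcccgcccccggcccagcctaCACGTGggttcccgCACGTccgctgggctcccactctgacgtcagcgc
Egln3: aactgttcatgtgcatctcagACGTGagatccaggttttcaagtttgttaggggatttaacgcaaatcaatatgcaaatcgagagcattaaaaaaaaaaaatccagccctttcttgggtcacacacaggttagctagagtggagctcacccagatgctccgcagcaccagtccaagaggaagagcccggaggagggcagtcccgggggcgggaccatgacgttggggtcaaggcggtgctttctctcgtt

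The Activin and Nodal genes had 3 of 27 measured members higher and 0 lower, with a median of -0.06. The 3 are targets that feed back on the pathway. Lefty1, a secreted Nodal inhibitor, had a level of 13.54 at day 7 and 11.41 at day 4 in the deletion line (4.38-fold higher), and 11.88 at day 7 and 13.33 at day 4 in the full-length line. Lefty2, which lies near it on chromosome 1, had 12.62 and 10.77 in the deletion line, and 10.72 and 12.03 in the full-length line. Pmepa1, which holds SMAD2 and SMAD3 back, had 9.54 and 8.34, and 8.33 and 9.36 in the full-length line. All 3 were thus at least 2-fold higher in the deletion line and at least 2-fold lower in the full-length line, a difference that was not tested. With probe sets averaged, Pmepa1 differed by -0.89 in the full-length line.

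The ligand gene Nodal had 11.40 at day 7 and 10.68 at day 4, a difference of 0.72 that its second probe set matched within 0.01 (0.73), beside -0.95 in the full-length line. The related ligand Gdf3 differed by 0.29. The other ligand genes, Inhba, Inhbb, Tgfb1 and Tgfb2, lay between -0.36 and 0.12. The receptor genes Acvr1b, Acvr2a, Acvr2b, Tgfbr1, Tgfbr2 and Tgfbr3 and the co-receptor Tdgf1 ranged from -0.76 for Acvr2b to 0.11 for Acvr2a. Of the intracellular mediators, Smad2 differed by 0.48, Smad3 by -0.46, Smad4 by -0.28 and the partner factor Foxh1 by -0.38, and the second probe sets of Smad2 (0.08) and Smad3 (0.60) differed from these in size or sign. Among the remaining inhibitors and targets, Fst differed by 0.22, Smad7 by -0.01, Ski by -0.17, Inha by -0.55, Skil by -0.67, Tgif1 and Bcor by -0.07 each. A second Fst probe set gave 1.14.

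Of the primitive streak and mesendoderm genes, 3 of 12 measured were higher and 0 lower, with a median of 0.49 in the deletion line and -0.53 in the full-length line. These were Lefty2, Evx1 (6.42 at day 7, the floor at day 4) and Fgf8 (6.37 at day 7, the floor at day 4), and the last 2 rest on where the floor is set. With the floor at the 50th percentile Fgf8 differed by 0.30 and Evx1 was not measured, and the deletion-line median was 0.13. With dim genes kept it was 0.04. In the full-length line Fgf8, a growth factor gene of the streak, had 6.88 at day 7 and 9.43 at day 4. Eomes, a T-box factor of streak and endoderm, had 7.92 and 8.03 in the deletion line, and 7.23 and 8.95 in the full-length line. Of the defining streak genes, Mixl1 and Gsc had mean signals below the floor and T had no probe set with 1 symbol, so none of these is among the 12. The definitive endoderm list had 1 of 12 higher, the receptor gene Kit (1.33), and 2 lower, Prom1 (-2.45) and the claudin gene Cldn6 (-1.44), while Sox17 differed by -0.39 and Foxa2 by 0.75.

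The FGF and ERK genes were lower in 8 of 20 measured members and higher in 1. FGF ligands signal through ERK kinases, which induce Dusp and Spry genes, and these in turn dampen ERK. Of the 10 target genes, 6 were lower and 0 higher, with a median of -1.33 in the deletion line and -0.38 in the full-length line. Dusp6, an ERK phosphatase gene, had 9.78 at day 7 and 12.10 at day 4 in the deletion line (4.99-fold lower), and 12.05 and 11.96 in the full-length line. Dusp4 had 7.26 at day 7 and 9.58 at day 4. Spry2, Spry4, Spry1 and Spred1 were lower by 1.86, 1.79, 1.53 and 1.12, whereas in the full-length line they differed by -0.41, -0.79, -0.33 and -0.16. Etv5 and Ccnd1, also targets, were not past 2-fold. Fgf4, the ligand of stem cells, differed by -0.11. Myc, from the list of immediate-early factors, had 8.61 at day 7 and 10.26 at day 4, and was the only one of 18 in that list past 2-fold.

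Markers of the formative and primed epiblast, the stage after naive pluripotency, were lower in 9 of 18 and higher in 0, with a median of -0.93, beside 12 lower and a median of -1.41 in the full-length line. Pou3f1, which encodes OCT6, had 8.63 at day 7 and 11.68 at day 4 (8.28-fold lower). Fgf5 had 7.80 and 10.26 in the deletion line, and 9.21 and 11.70 in the full-length line. Otx2, Sox3 and Pim2 were lower by 1.12, 1.5 and 2.11. Sox4 was lower by 1.78, with a full-length difference of 0.02, and its other probe sets ranged from -2.06 to -0.18.

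Naive pluripotency genes were higher in 6 of 19 and lower in 1, with a median of 0.55, beside 8 higher and a median of 0.84 in the full-length line. Tbx3 had 10.16 at day 7 and 7.61 at day 4 (5.86-fold higher), and Klf4 had 10.94 and 9.40. Dppa3, which protects imprints in the early embryo, had 13.16 at day 7 and 11.56 at day 4. Prdm14, Jam2 and Pecam1 were higher by 1.47, 1.38 and 2.25, the last on chromosome 11. Gbx2, a homeobox gene induced by LIF, went the other way with 6.34 at day 7 and 8.64 at day 4, while the full-length line had 8.28 and 6.55. Of the 15 core pluripotency genes, Nanog (13.94 at day 7, 12.77 at day 4) and Fbxo15 were higher, each by 1.17, and Lin28a, an RNA-binding repressor of let-7, was lower by 1.61 (second probe set -0.85). Pou5f1, which encodes OCT4, had 13.56 and 13.53, and Sox2 13.52 and 13.49.

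Blood and endothelium genes were lower in 8 of 17 and higher in 1, with a median of -0.93 in the deletion line and -0.85 in the full-length line. The embryonic globin genes Hbb-bh1 (5.41 at day 7, 8.02 at day 4) and Hba-x (the floor at day 7, 7.68 at day 4) were lower. Hbb-y had 6.07 at day 7 and 8.81 at day 4, while the full-length line had 8.92 and 8.67. Globin genes are similar in sequence and their probes may read related copies. The endothelial factor gene Sox18 was lower by 2.77 and the VEGF receptor gene Flt1 by 1.83. The 1 higher member was the endothelial marker gene Pecam1 on chromosome 11 (2.25), which is also in the naive pluripotency list. In bulk RNA, fewer cells of a type and less RNA per cell cannot be told apart. Of the mesoderm and muscle genes, 4 of 25 were lower, Cnn1 and the smooth muscle light chain Myl9 (8.52 at day 7, 11.13 at day 4) among them, and 2 higher, Mylpf (2.05) and Myh7 (1.02).

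BMP genes were lower in 4 of 16, namely Bmp7, Bmp8b and the BMP target genes Id1 and Id3. The second probe sets of the ligand genes Bmp7 (0.08) and Bmp8b (-0.42) did not show their differences of -1.25 and -1.72. Id1 had 9.63 at day 7 and 10.96 at day 4, and Id3 had 8.17 and 9.59, with Id3 also lower in the full-length line (-1.68). In the Wnt list the inhibitor gene Dkk1 was lower by 1.82 and Notum, a Wnt-inactivating enzyme on chromosome 11, was higher by 1.32, of 14 measured. That is 7.14% each way, near the shares over all measured genes. Neural genes were lower in 4 of 15, among them Sox1 (the floor at day 7, 7.48 at day 4) and Neurod1 (-1.41), and higher in 2, Ncam1 and Tubb3. The second Sox1 probe set did not show this difference. The median of the neural list, -0.38, was 0 with dim genes kept.

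Trophoblast genes were higher in 2 of 17 and lower in 1, with a median of 0.47, beside 10 higher, 1 lower and a median of 1.19 in the full-length line. Plac1, a placental gene, had 7.41 at day 7 and 8.62 at day 4 in the deletion line, and 12.62 and 9.29 in the full-length line. Elf5, a factor of trophoblast stem cells, lay at the floor on both deletion-line arrays and at 8.22 at day 7 in the full-length line. Keratins were higher in 5 of 13 and lower in 0. Krt17 (9.06 at day 7, 6.81 at day 4), Krt14 and Krt16 of stratified epithelia lie on chromosome 11, Krt6a (at least 1.91) and Krt7 (1.68) on chromosome 15. Without chromosome 11, 2 of 7 were higher. Epithelial junction genes were lower in 4 of 13, with Cldn3 and Mal2 lower by 1.74 and at least 2.35.

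Extraembryonic endoderm genes were higher in 5 and lower in 5 of 32. Afp, which encodes alpha-fetoprotein, had 11.04 at day 7 and 8.81 at day 4 (4.69-fold higher), and 8.32 and 8.84 in the full-length line. Thbd and Fxyd3 were higher by 2.11 and 1.74. Sox7, a factor of parietal endoderm, had 5.75 at day 7 and 7.5 at day 4, and Pdgfra, Cubn, Amn and Dab2 were lower by between 1.05 and 1.16, with second probe sets at -0.15 for Pdgfra and -0.60 for Dab2. The factor genes Gata4 and Gata6 did not pass 2-fold.

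Integrated stress response genes were higher in 6 of 27 and lower in 0, with a median of 0.52 in the deletion line and -0.33 in the full-length line. One of the 6 is Ddr2, a collagen receptor gene (the floor at day 4, higher by at least 1.81), which is known from fibroblasts rather than for stress. Without it 5 of 26 were higher, with a median of 0.48. Nupr1, a stress-induced chromatin protein gene, had 10.26 at day 7 and 8.39 at day 4. Atf3 had 9.17 and 7.45, and Ddit3, which encodes CHOP, had 9.57 and 8.36. In the full-length line Nupr1, Atf3 and Ddit3 also differed upward, by 0.65, 0.72 and 1.04. That line had 2 members of the list higher and 2 lower. The p53 targets had 0 of 16 past 2-fold in either line, with medians of 0.41 and -0.28. Cdkn1a had 11.03 and 10.40 in the deletion line, and 10.77 and 11.01 in the full-length line. Interferon and antigen presentation genes were higher in 4 and lower in 4 of 23. Ifi35 on chromosome 11 was higher by 2.66, and Zbp1 and Gbp2 by at least 2.50 and by 2.09, while Ifit2, Bst2, Tap1 and H2-K1 were lower.

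Imprinted genes, which are expressed from 1 parental copy, were lower in 9 of 29 and higher in 1, with a median of -0.78, beside -0.18 in the full-length line. Nnat had 6.14 at day 7 and 8.51 at day 4, and Grb10 had 8.64 and 10.67, though its second probe set gave only -0.43. Mirg, Rian, Meg3 and Dlk1, which lie together on chromosome 12, were lower by 2.09, 1.63, 1.11 and 1.21. In the full-length line, 6 of the 29 were lower and 2 higher. Grb10, Mirg and Rian were lower there too (-2.15, -1.40 and -1.11), while Nnat differed by -0.18. Phlda2 was lower by 1.63, beside 0.55 in the full-length line. The exception was Cdkn1c, a cell cycle inhibitor gene, with 9.89 and 8.51 in the deletion line, and 12.19 and 8.45 in the full-length line.

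Of the genes altered in these cells, Dnmt1 had 8.94 at day 7 and 8.37 at day 4, a difference of 0.57, and Dnmt3b had 8.75 and 9.04. Dnmt3a was not measured. Where the probe sets lie relative to the deleted and the expressed parts was not examined here, so these levels do not check the labels. The other Dnmt1 probe sets gave 0.87 and 1.46, so the size of its difference varied with the probe set. By the brightest probe set, no gene of the DNA methylation list (13) or of chromatin silencing (18) passed 2-fold. The nearest, Suz12 on chromosome 11, differed by 0.97 and had other probe sets from 0.85 to 2.78.

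Fibroblast markers, of the kind that feeder cells of stem cell cultures express, were higher in 7 of 17 and lower in 0, with a median of 0.98 in the deletion line and 0 in the full-length line. Their summed signal in the deletion line was 12.25 on the log2 scale at day 7 and 11.01 at day 4, below the 14.34 of day 0. At day 7, 1 of 17 lay at the floor, against 7 at day 4. Lox, which cross-links collagen, had 9.48 at day 7 and 6.23 at day 4, and the matrix genes Col1a2 and Postn were higher by 2.21 and at least 2.29. Of Col3a1, higher by at least 2.60, a second probe set lay at the floor. Snai2, Cdh11 and Zeb1, which led 3 of 12 mesenchymal genes that were higher, each had a second probe set with no difference. Whether the matrix and mesenchymal values come from such cells was not tested. Of 12 measured myeloid markers 8 lay at the floor at day 7 and 8 at day 4, not all of them the same. Only Csf1r was called higher (8.52 at day 7, 6.31 at day 4), while its other probe sets gave 0.03 and 0.80.

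**Figure D3:**
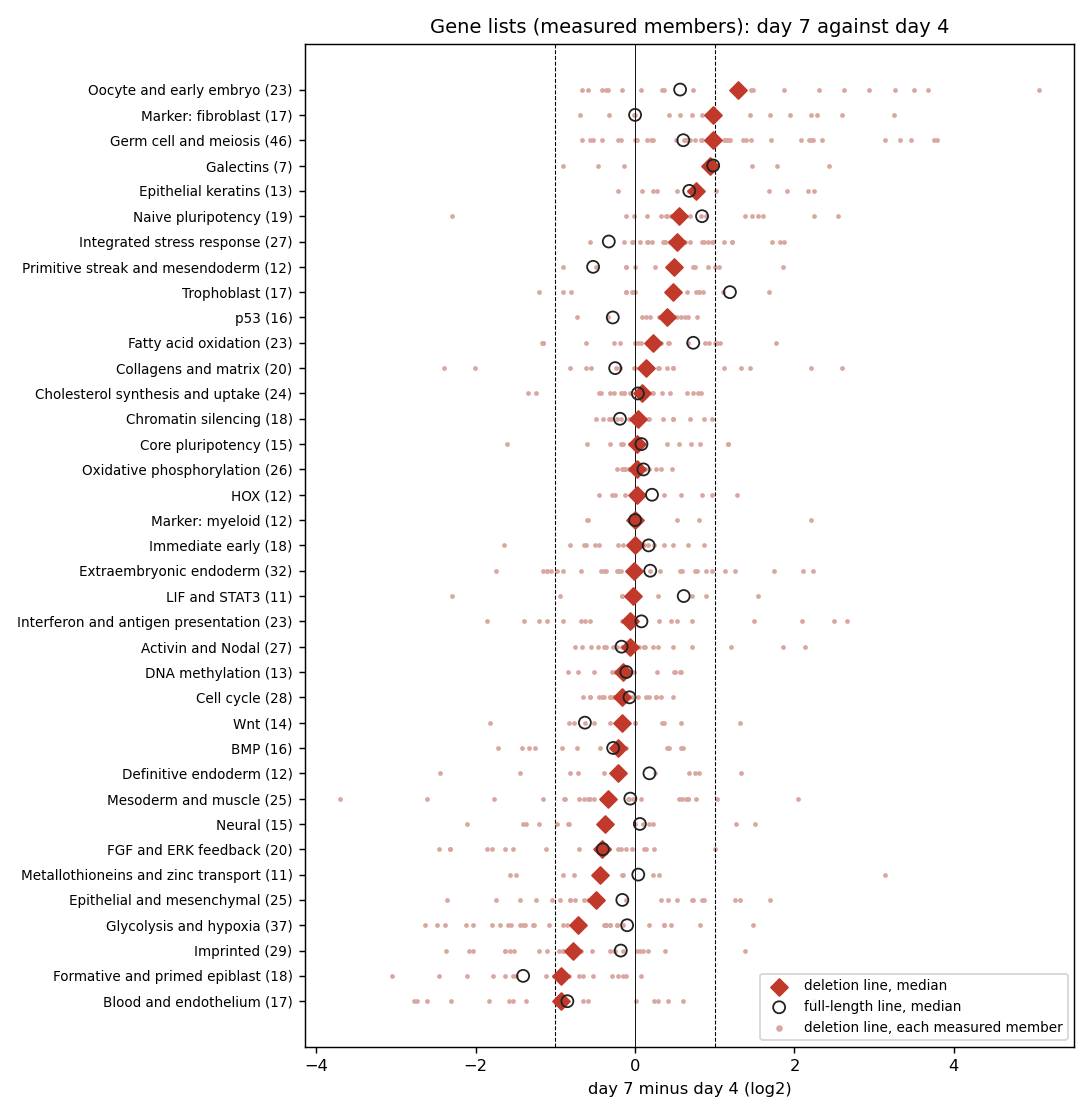
Day 7 minus day 4 differences (log2) of 37 gene lists, with the number of measured members in brackets. Small points are the members in the deletion line, diamonds the deletion-line medians and circles the full-length medians. Dashed lines mark 2-fold. Medians run from 1.29 for oocyte and early embryo genes to -0.93 for blood and endothelium genes.

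Smaller lists gave single genes. Galectins were higher in 3 of 7, with Lgals3 at 13.04 at day 7 and 10.61 at day 4. In the fatty acid oxidation list, Slc25a20, the carnitine carrier gene, had 12.95 and 11.18, Cpt1a had 11.01 and 9.98, and the list had 4 members higher and 3 lower of 23. Of the cholesterol genes, the 2 lower of 24 (8.33%, near the 5.97% of all measured genes) were the desaturase genes Scd1 (-1.35) and Scd2 (-1.24). The zinc transporter genes Slc39a14 and Slc39a8 were lower by 1.57 and 1.49. In the LIF and STAT3 list only Klf4 and Gbx2, of 11, passed 2-fold, and of 12 HOX genes only Hoxb9. Hoxb9 lies on chromosome 11 and had only 6.65 at day 7, with the floor at day 4. Of the 9 HOX genes off chromosome 11, 0 were higher.

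The deletion-line day 0 array, whose title gives day 0 while its source label speaks of differentiated cells, places some of these genes over all 3 times. Dazl had levels of 10.48, 10.07 and 13.53 at days 0, 4 and 7, and Pramel6 lay at the floor at days 0 and 4, so both were highest at day 7. Stra8, with 8.11, 6.04 and 9.37, was lowest at day 4. Lefty1 had 12.61, 11.41 and 13.54, and Nodal had 11.49, 10.68 and 11.40. Ldha had 14.17, 14.40 and 12.28 and Dusp6 had 11.43, 12.10 and 9.78, with day 7 as the low value in each. Fgf5 lay at the floor at day 0 and had 10.26 at day 4 and 7.80 at day 7. Klf4, with 13.15, 9.40 and 10.94, and Lox, with 10.83, 6.23 and 9.48, were highest at day 0 and lowest at day 4.

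The deletion line was then set beside the full-length line, whose arrays it does not share. There 690 genes (5.2%) were higher and 417 (3.14%) lower at day 7. Both lines shared 186 higher genes, 29.4% of the deletion-line list and 27.0% of the full-length list, and 113 lower genes, 14.3% and 27.1%. Across genes, which are not independent, the changes of the lines had a Pearson correlation of 0.30. At least 2-fold in opposite directions were 24 genes higher in the deletion line and lower in the full-length line, and 36 the other way round. These counts followed the floor and the brightness asked for: with the floor at the 30th percentile they were 56 and 63, and with the brighter array at 4 times the floor 13 and 18. The 24 were 3.8% of the deletion line's higher genes, near the 3.14% of all measured genes that were lower in the full-length line. The 36 were 4.55% of the deletion line's lower genes, near the 5.2% of all that were higher in the full-length line. Efemp1, a matrix gene on chromosome 11, had 7.34 at day 7 and 5.56 at day 4 in the deletion line, and 6.13 and 9.60 in the full-length line. Ptn, a growth factor gene, lay at the floor and at 7.57 in the deletion line, and at 10.30 and 8.75 in the full-length line, but its other probe sets gave -0.46 and 0 in the deletion line. The eye-field factor gene Six6 lay at the floor on both deletion-line arrays, while in the full-length line it had 9.07 at day 7 and the floor at day 4.

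**Figure D4:**
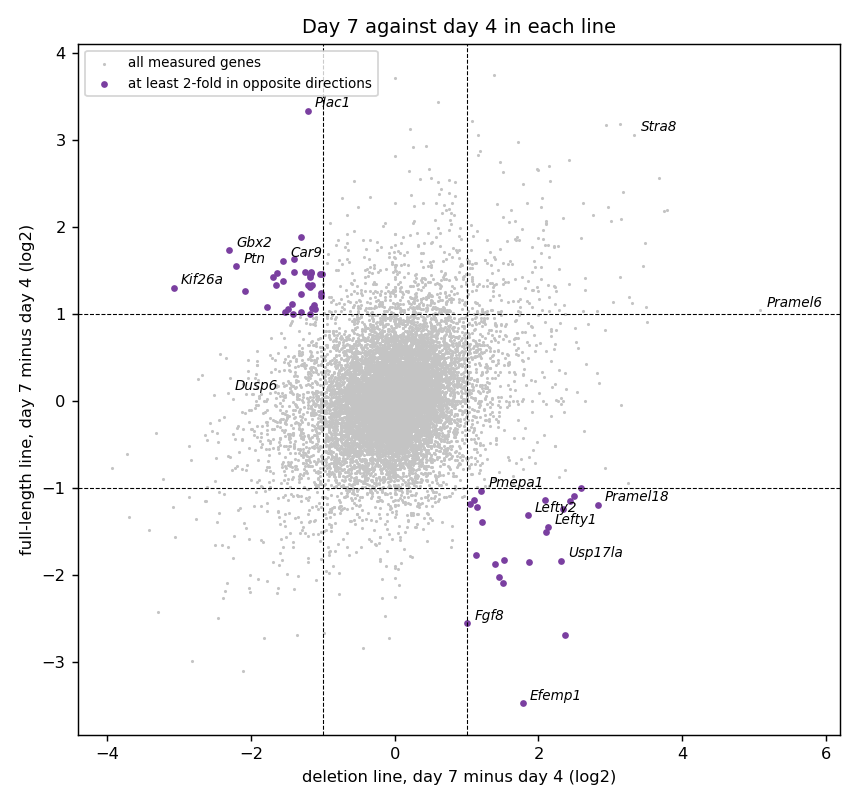
Day 7 minus day 4 differences (log2) of each measured gene, in the deletion line on the x axis and in the full-length line on the y axis. Purple points are the 60 genes at least 2-fold apart in opposite directions, with Lefty1, Lefty2 and Pmepa1 at the lower right and Gbx2, Car9 and Plac1 at the upper left.

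Genes of chromosome 11 were higher at day 7 as a group in the deletion line, a pattern noticed after the values were seen. Of its 1093 measured genes 9.15% were called higher and 3.48% lower. Among genes whose mean level over the day 7 and day 4 arrays was at least 9, the 553 on chromosome 11 had a median difference of 0.37 (quartiles 0.14 and 0.61) and 84.4% lay above 0. The medians of the other 19 chromosomes lay between -0.08 and 0.04, with 40.1% to 54.6% of genes above 0. The full-length median of chromosome 11 was 0.09, beside -0.05 to 0.06 elsewhere. Between day 4 and day 0 of the deletion line it was 0.05. The deletion line minus the full-length line gave chromosome 11 medians of -0.23 for day 0, -0.07 for day 4 and 0.23 for day 7. Other chromosomes lay between -0.16 and 0.03 at day 0, -0.02 and 0.13 at day 4, and -0.09 and 0.06 at day 7, so chromosome 11 lay below them at days 0 and 4 and above them at day 7. Along the chromosome, the medians of 10 windows of 10 Mb with at least 20 genes ranged from 0.20 to 0.48. Chromosome copy number was not measured here. Without chromosome 11, 532 of 12184 genes (4.37%) were higher and 754 (6.19%) lower.

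**Figure D5:**
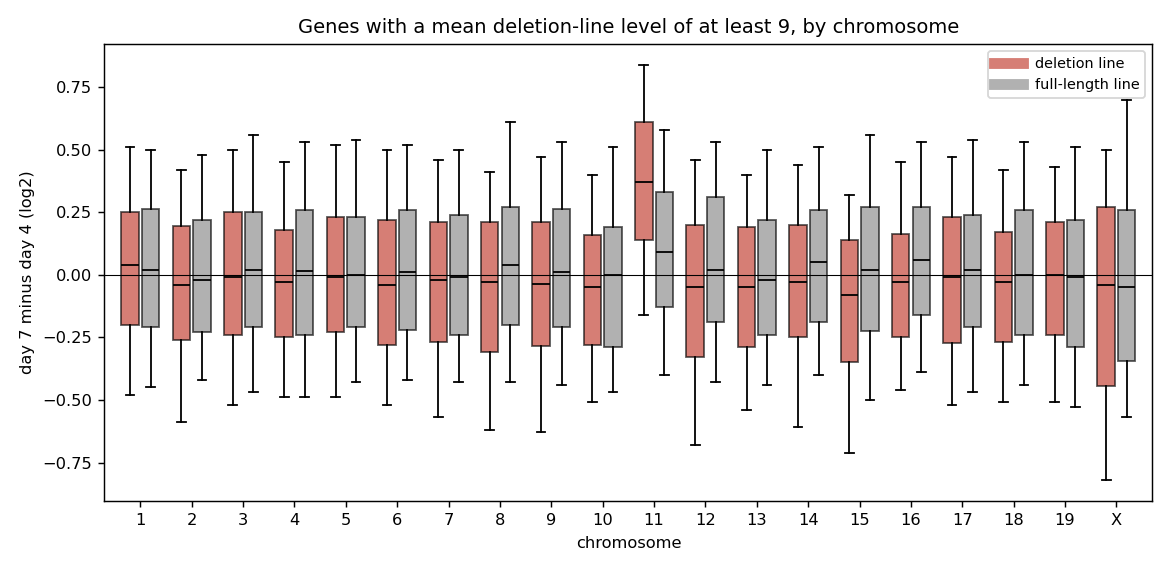
Day 7 minus day 4 differences (log2) by chromosome in the deletion line (red, left) and the full-length line (grey, right), over genes with a mean deletion-line level of at least 9. Boxes span the quartiles, black lines are medians and whiskers the 10th and 90th percentiles. Chromosome 11 of the deletion line has a median of 0.37, against -0.08 to 0.04 on the other chromosomes.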

How the data were processed

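Of 6 Affymetrix arrays of mouse cells, the 2 of the deletion line at days 7 and 4 are compared here, and samples were grouped by their titles. The deposited values, read here as log2 signals, were computed by the authors with MAS5, per the submitters' processing notes. The log2 scale was inferred from the values, which ran from 0 to 15.68: 2 raised to them had nearly equal means on all arrays after trimming 2% at each end. For MAS5, neither version nor scaling target is given in the sources used here. Global scaling removes a shift of most genes in 1 direction.

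Linear signals below the floor (the median over arrays of the 40th percentile) were set to it. The platform annotation, dated 2016, gave 34945 of 45037 probe sets 1 symbol, 932 several and 9160 none. Each gene was represented by the probe set brightest on average, so a fall in 1 probe set alone can be missed where another then becomes the brightest. Python 3.11.15, pandas 2.3.3 and numpy 2.4.6 were used. The code for the calls was run on simulated arrays with large changes in bright genes and little noise. That checks the code and not the calls made here. Of 72 named genes past 2-fold with a second probe set, 51 were past 2-fold in it the same way, 15 had the same sign and 6 did not. Promoters and positions are RefSeq's (GRCm38.p6). Where no promoter sequence began at a gene's own start, one from another start of that gene was used.

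Named genes are the 25 highest and 25 lowest differences (brighter array at least 4 times the floor, 3 genes known by model names left out), all measured Activin and Nodal genes, up to 6 of each other list, Dnmt1, Dnmt3a, Dnmt3b, Pou5f1, and the 10 most different each way between the lines. Other genes were named after their values were seen. The members and the 37 lists were chosen with earlier results of these data known. Some genes stand in several lists.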

Additional observations from a re-analysis of the deposited data

Results flagged for a closer look

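These results moved in opposite directions in the lines, and with 1 array a side none of the differences between the lines was tested. Opposite calls were near the share over all measured genes. They were 3.8% of the deletion line's higher genes, beside 3.14% of all genes lower in the full-length line. They were 4.55% of the deletion line's lower genes, beside 5.2% of all genes higher in the full-length line. Values are day 7 minus day 4 on the log2 scale, in the deletion line and then in the full-length line. Of the 20 named genes at least 2-fold apart in opposite directions, 12 were higher in the deletion line and lower in the full-length line: Pramel18 (2.83 and -1.19), Lefty1 (2.13 and -1.45), Lefty2 (1.85 and -1.31), Pmepa1 (1.20 and -1.03), Fgf8 (1.00 and -2.55), Zbp1 (2.50 and -1.09), Gbp2 (2.09 and -1.13), Col3a1 (2.60 and -1.0), Efemp1 (1.78 and -3.47), Usp17la (2.31 and -1.83), Zfp750 (2.10 and -1.5) and Ccn4 (2.44 and -1.15). The other 8 went the other way: Kif26a (-3.08 and 1.30), Gbx2 (-2.30 and 1.73), Pdgfra (-1.16 and 1.48), Plac1 (-1.21 and 3.33), Ptn (-2.21 and 1.55), Gstt1 (-2.08 and 1.27), Dmrt3 (-1.30 and 1.88) and Car9 (-1.55 and 1.61). Medians of 3 lists, of at least 0.25 in size in each line, also had opposite signs: the primitive streak and mesendoderm list (0.49 and -0.53), the integrated stress response list (0.52 and -0.33) and the p53 list (0.41 and -0.28).

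In a comparison added after the data were seen, 7 of the 20 genes stayed at least 2-fold apart in opposite directions under 8 alternatives for the floor, filter, scaling, probe set and brightness: Gbx2, Gstt1, Kif26a, Lefty1, Lefty2, Plac1 and Usp17la. With the floor at the 50th percentile 13 did, and Fgf8 (0.30 and -2.55) and Car9 (-0.85 and 1.53) were among those that did not. With probe sets averaged 13 did, and Ptn (-0.89 and 1.17) and Pdgfra (-0.66 and 0.74) were among those that did not. Averaging could not change these 13, which have 1 measured probe set each, the 7 genes above among them. Every flagged gene with a second probe set lost the opposite call: Pmepa1, Pdgfra, Zbp1, Gbp2, Col3a1, Ccn4 and Ptn. Nor could a lower floor, no floor or dim genes kept undo an opposite call. The primitive streak list fell below 0.25 in 1 line or both with the floor at the 30th percentile (0.37 and -0.22), with it at the 50th (0.13 and -0.77) and with dim genes kept (0.04 and 0). The medians of the other 2 lists stayed above it in size under all 8. The brightness rule changes only calls, so it could not move a median.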

How the results depend on the processing

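No paired analysis was possible because each line and day has 1 array and the labels give no replicate numbers, and no replicate could be left out. The 632 higher and 792 lower genes stayed within 1.5 times under 8 alternatives and 2 more that concern chromosome 11, added after seeing the data. The counts ranged from 456 higher and 568 lower, where the brighter array had to reach 4 times the floor, to 872 and 1013 with the floor at the 30th percentile. With probe sets averaged, 554 of the 632 and 657 of the 792 were called again. Scaling the arrays to equal medians gave 679 and 742. Removing the floor could not change the calls, and both counts stayed the same. No list median of at least 0.24 in size and no called named gene changed sign under the 9 of these that alter the values or the genes kept. For a called gene, moving the floor, keeping dim genes or leaving out chromosome 11 could not change the sign. Medians that moved to near 0 with dim genes kept were those of the oocyte (0.04), primitive streak (0.04), trophoblast, neural, and mesoderm and muscle lists (0 each). Dim genes are limited by the floor: 59 of 262 named genes moved by more than 0.24 with the floor at the 50th percentile. With chromosome 11's median shift of 0.37 subtracted, 24 of 274 did. These are the named genes of that chromosome, and a shift above 0.24 had to move each of them.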

Other observations

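Probe sets with several gene symbols or none were not used for genes. Of these 10092, 3350 reached the floor on average, and by the same rule 163 (4.87%) were higher and 122 (3.64%) lower at day 7 in the deletion line. Of 4 measured Rhox homeobox genes, which lie together on the X chromosome, 1 was higher in the deletion line (median 0.73) and 4 were higher in the full-length line (median 1.79), counted by symbol after the values were seen. Of 16 measured chemokine genes, counted in the same way, 4 were higher and 1 lower in the deletion line, with a median of 0.16.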
